A study of Mus musculus with 12 samples.

Results

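The genes described here are 35 astrocyte genes, picked by symbol from the 54427 genes listed in a count table of mouse hippocampus RNA. They form 21 homeostatic genes, which serve the resting work of astrocytes, and 14 reactive genes, which are used as marks of the response of astrocytes to injury or disease. Each group was treated apart. All 35 symbols were found in the table.

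RNA of hippocampal tissue was sequenced in 12 libraries, with 3 libraries in each of 4 genotype groups. The groups are WT, 5xFAD, Ulk1OV (labelled as ULK1 overexpression) and 5xFAD;Ulk1OV, which carries both. 5xFAD is a mouse line that expresses mutant human amyloid precursor protein and presenilin 1 from a neuronal promoter, and Ulk1 is a kinase that starts autophagy. The labels name no treatment other than the genotype. The sources used here do not give the construct and promoter behind Ulk1OV, the strain background, or the age and sex of the mice. Nothing in the labels says that the 3 libraries of a group came from separate mice, and a p-value below therefore reads only how far these libraries differ from each other, which may be technical.

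Astrocytes clear glutamate and potassium from around synapses, convert glutamate to glutamine, hold water channels at their endfeet on vessels, and are joined to each other by gap junctions. When they react to injury or amyloid plaques they raise the intermediate filament protein GFAP, and in many settings vimentin and the secreted protease inhibitor encoded by Serpina3n. Signals of the interleukin 6 family, read by receptors such as the oncostatin M receptor and passed on by the transcription factor STAT3, are a well known route to that response.

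The total per library ran from 16149992 to 18547132 counts, and values below are counts-per-million values (CPM) of the library size after TMM scaling. A filter on low counts kept 17227 genes for testing, among them all 21 homeostatic and 12 of the 14 reactive members. Markers of neurons summed to between 8152 and 11253 CPM and markers of oligodendrocytes were detected in every library, and the labels also carry the words "primary cells". The library labelled 5xFAD;Ulk1OV replicate 3 goes against its label: its App level was 1310 CPM, against 2201 to 2667 CPM in the other 5 libraries with a 5xFAD label and 1241 to 1493 CPM in those without. It is called the library in doubt below, and member results that use it are given with it and, where they are described in full, also without it. Prnp, the prion protein gene, split the libraries as App did. It read 954 CPM in the library in doubt and 2067 to 2510 CPM in the other 5 with a 5xFAD label. In those without that label it read 900 to 1119 CPM. The cause of the Prnp difference was not tested. Ulk1 was at 84.6 to 102 CPM in the 6 libraries labelled Ulk1OV and at 63.5 to 86.3 CPM in the other 6, so the groups overlapped. Choroid plexus markers summed to 6383 CPM in WT replicate 3 and to 4333 CPM in Ulk1OV replicate 1, against at most 353 CPM in the other libraries.

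Among the reactive members, Gfap and Serpina3n carry most of what follows, so the DNA upstream of an annotated start of each is shown, read from RefSeq (GRCm38.p6). The capitals mark TTCNNNGAA, the palindrome that STAT proteins are known to recognise, searched on both strands at once because it reads alike on each. The Gfap window lies at chr11:102897194-102897450 on the minus strand and its match begins 2 bases before the start and runs across it. The Serpina3n window lies at chr12:104406458-104406707 on the plus strand and holds no match.
Gfap: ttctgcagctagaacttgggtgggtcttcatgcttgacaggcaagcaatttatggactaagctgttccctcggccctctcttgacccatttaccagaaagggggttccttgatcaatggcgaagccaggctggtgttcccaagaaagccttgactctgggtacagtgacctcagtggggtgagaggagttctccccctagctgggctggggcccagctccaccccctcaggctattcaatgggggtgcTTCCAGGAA
Serpina3n: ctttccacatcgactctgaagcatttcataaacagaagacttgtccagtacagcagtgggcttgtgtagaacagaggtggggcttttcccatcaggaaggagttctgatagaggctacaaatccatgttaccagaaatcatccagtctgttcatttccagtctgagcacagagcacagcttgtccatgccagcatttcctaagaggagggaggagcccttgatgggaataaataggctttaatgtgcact

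The palindrome was found in 2726 of 32851 windows that reach from 250 bases before to 50 bases after an annotated start (8.3%). RefSeq windows were matched to 31 of the 35 members, with 40 windows in all, and 5 of these windows, of 5 members, held it. Beside Gfap these were Steap4 among the reactive members and Slc1a3, Aldoc and Ntsr2 among the homeostatic ones, and their matches are shown with 10 bases on either side.
Steap4 (chr5:7960346-7960374, plus strand): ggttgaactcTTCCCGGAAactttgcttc
Aldoc (chr11:78324064-78324092, plus strand): aggggccagaTTCAGTGAAagaagagctg
Aldoc (chr11:78324105-78324133, plus strand): tggcagcagtTTCCAGGAAgacctgtggc
Ntsr2 (chr12:16653398-16653426, plus strand): gttttggaggTTCCCAGAAaggaggtggt
Slc1a3 (chr15:8710885-8710913, minus strand): ttcaggatccTTCCAAGAAatttcagtta
A match describes these letters only.

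Levels per length separated the 2 classes with few exceptions. Per kilobase of exon, Glul, which makes glutamine, and Sparcl1, a secreted matrix protein that promotes synapse formation, stood highest, at 797 ± 140 and 736 ± 87.1 CPM per kb (SD, n = 12), and their ranges overlapped. Aldoc, a glycolytic enzyme, followed at 398 CPM per kb, then Ndrg2 at 364 and the glutamate transporter Slc1a2 at 247. Gfap, at 213 ± 35.1 CPM per kb, was the only reactive member among the 16 highest. Its range did not overlap that of Atp1b2, a subunit of the sodium pump, which came next at 131 CPM per kb.

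Serpina3n stood at 24.3 CPM per kb and Vim, vimentin, at 20.8, both within the range of the lower homeostatic members such as Slc4a4 at 21.4 and Sox9, a transcription factor of the lineage, at 12.9. The other reactive members lay below every homeostatic one. Stat3 led them at 6.47 CPM per kb, and its range overlapped neither that of Slc7a10 above it nor that of Cp below it. Osmr, the oncostatin M receptor, was at 0.36 CPM per kb, with 39 to 125 counts per library. Lcn2, a secreted iron-trap protein widely used as a reactive marker, had 1 to 27 counts per library and Steap4, a metalloreductase, 1 to 10, and neither passed the filter. With no filter, edgeR called neither in any comparison.

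**Figure D1:**
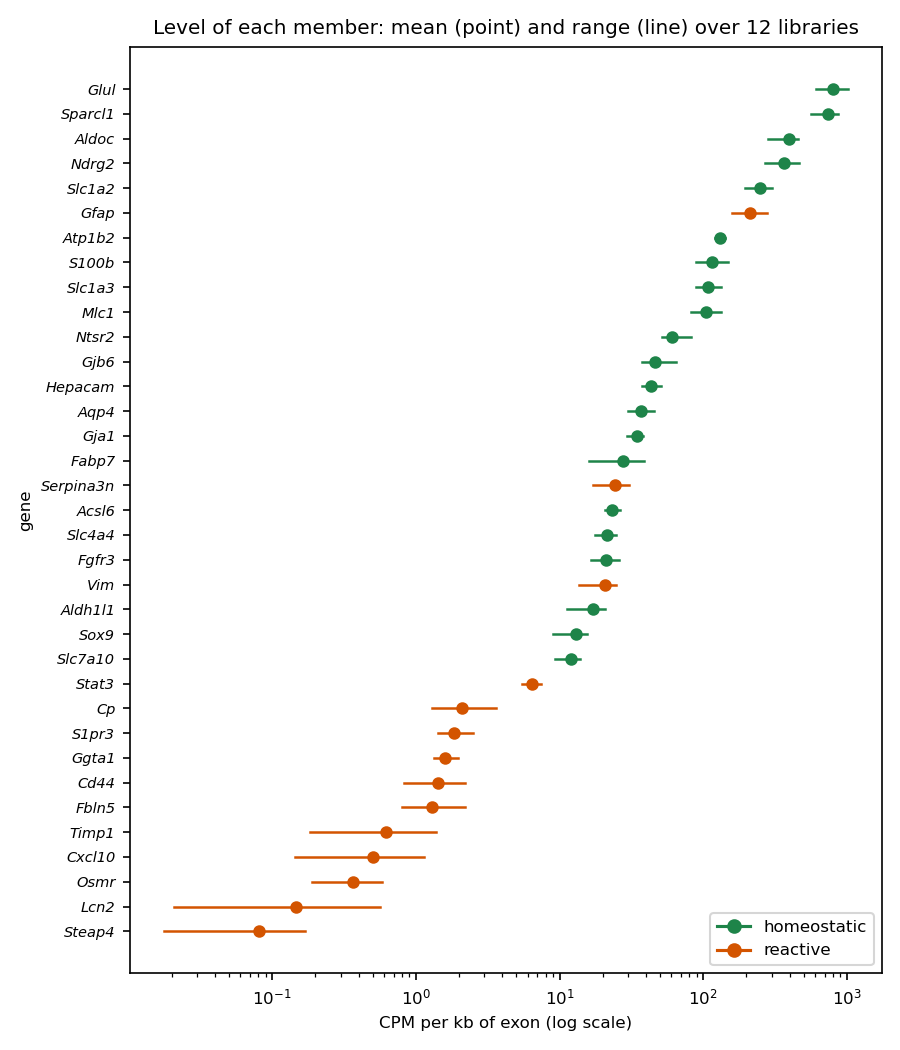
Mean level (point) and range over the 12 libraries (line) of each of the 35 members, in CPM per kb of exon on a log scale. Homeostatic genes fill the upper part of the order from Glul at 797 down to Slc7a10 at 11.9, with Gfap at 213 among them, and Lcn2 and Steap4 stand at the bottom.

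The levels were compared between 5xFAD and WT to see what the 5xFAD genotype went with in libraries without the Ulk1OV label. Gfap, Serpina3n and Osmr lay higher in all 3 5xFAD libraries than in every WT library, while no homeostatic member separated the groups in either direction. No member passed an adjusted p of 0.05 in edgeR's quasi-likelihood test, and neither did any other gene (0.0% of 17227 called, with 2139 genes, 12.4%, at an unadjusted p under 0.05). Among the members, 4 reactive genes (3 higher and 1 lower) and 0 homeostatic genes had an unadjusted p under 0.05 in the edgeR fit. DESeq2 called 136 genes (0.43%), of which 1 was a member, Gfap.

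Gfap read 840, 784 and 688 CPM in the WT libraries and 1014, 1179 and 1007 CPM in the 5xFAD libraries. All 3 5xFAD libraries lay above the WT ones. The difference was 0.47 ± 0.12 on the log2 scale (SE, n = 3 against 3), or 1.38-fold, with an adjusted p of 0.233 in edgeR's quasi-likelihood test and of 0.0371 in DESeq2. With no filter on low counts, edgeR's adjusted p for Gfap was 0.0069, in a fit that called 127 genes higher and 424 lower among 31643 tested. The WT library with the lowest Gfap, replicate 3, was the one with a choroid plexus marker sum of 6383 CPM. Over the 12 fits that each left out a library, the Gfap difference ran from 0.39 to 0.54.

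Osmr, the receptor subunit for oncostatin M, read 2.29, 4.74 and 2.78 CPM in WT and 7.07, 6.74 and 4.85 CPM in 5xFAD. The groups came close, with the highest WT library just below the lowest 5xFAD library. The log2 difference of 0.92 ± 0.26 was the largest of the 33 members tested in size and had an edgeR adjusted p of 0.243 (0.0365 with no filter on low counts).

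Serpina3n read 49.0, 35.2 and 42.1 CPM in WT and 56.0, 57.3 and 51.2 CPM in 5xFAD. The log2 difference was 0.38 ± 0.12 with an edgeR adjusted p of 0.260, and the groups did not overlap. Vim read 99.3, 72.2 and 91.5 CPM in WT and 64.9, 117 and 115 CPM in 5xFAD. Of these, 5xFAD replicate 1 lay below all WT libraries and the other 5xFAD libraries above them, and the log2 difference was 0.17 ± 0.18 (edgeR adjusted p = 0.737). These are 3 reactive members higher without overlap among 12 tested, where 10.5% of all genes tested were higher without overlap in 5xFAD. Lower without overlap were 0 members and 9.05% of all genes. Of 24 further reactive genes tested, listed apart from the members, 2 lay higher and 2 lower without overlap. Their median log2 difference was -0.12, with 10 above 0 and 14 below.

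The homeostatic member with the smallest p was Mlc1, a membrane protein of the perivascular endfeet. It read 330, 326 and 268 CPM in WT and 276, 275 and 231 CPM in 5xFAD, with a log2 difference of -0.24 ± 0.11 (edgeR adjusted p = 0.407). Slc7a10, a transporter of small neutral amino acids such as D-serine, read 29.3, 24.5 and 28.7 CPM in WT and 26.6, 23.4 and 19.7 CPM in 5xFAD, a log2 difference of -0.24 ± 0.14 (edgeR adjusted p = 0.505). The groups overlapped for both genes. The homeostatic class ran from -0.25 to 0.20 with a median of -0.04, and the reactive class from -0.62 to 0.92 with a median of 0.14, beside a median of 0.00 over all genes tested. Without WT replicate 3 the reactive median was -0.015. In whole tissue, more astrocytes and more RNA per astrocyte cannot be told apart.

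**Figure D2:**
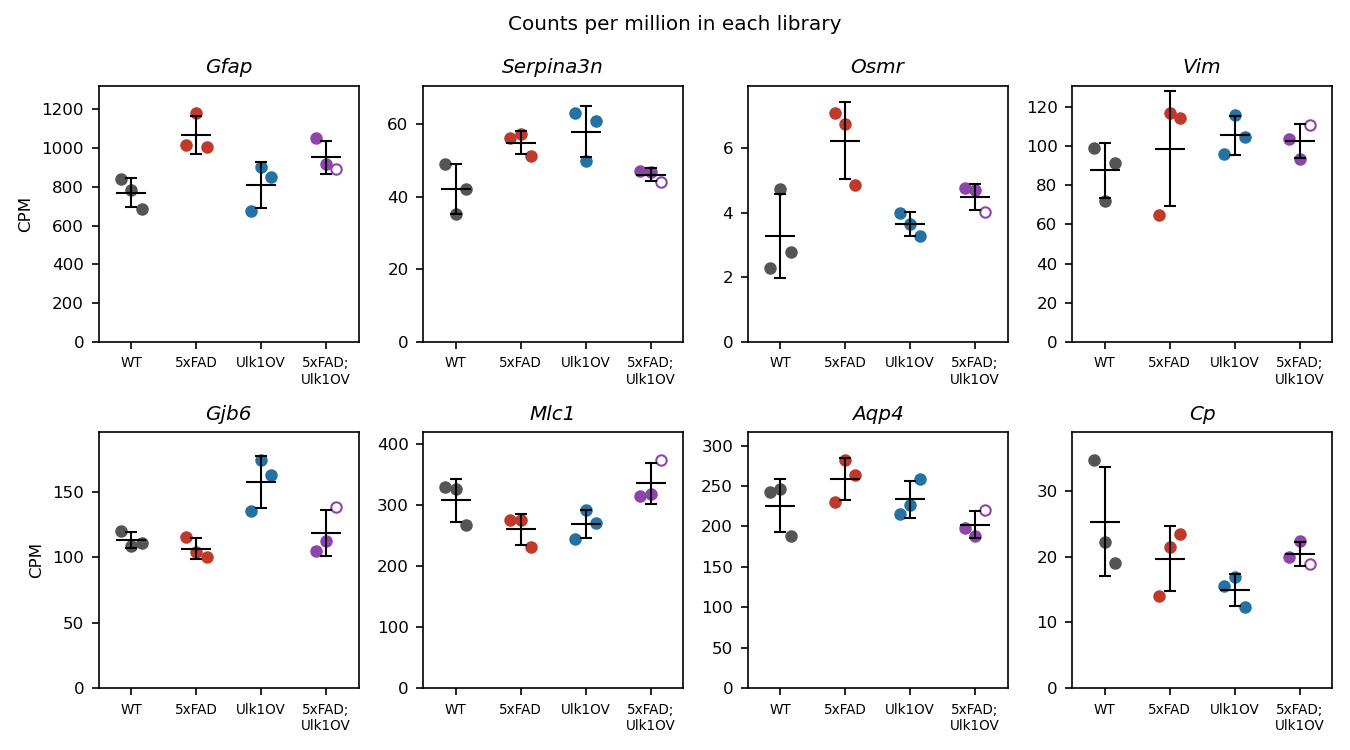
CPM of 8 members in each library (points), with the mean and SD of each group (bars). The open point is the library labelled 5xFAD;Ulk1OV replicate 3. The 3 5xFAD libraries stand above the 3 WT libraries for Gfap, Serpina3n and Osmr, and the 3 Ulk1OV libraries stand above the WT ones for Serpina3n and Gjb6.

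Ulk1OV was then compared with WT, where neither group carries 5xFAD. By edgeR over the filtered genes, 2 members rose, Gjb6 among the homeostatic genes and Serpina3n among the reactive ones, and 0 fell. Over all genes 5.17% were called by edgeR, 2.14% higher and 3.04% lower. DESeq2, which called 5.87% of all genes, and edgeR with no filter also called S100b higher and Cp lower. In edgeR, an unadjusted p under 0.05 was reached by 4152 of all 17227 genes tested. It was reached by 4 of 21 homeostatic members, all higher, and by 1 reactive member in each direction. Of the homeostatic members, 8 of 21 were higher without overlap, where 15.0% of all genes tested were, and 0 were lower, where 14.5% were. The difference in share was not tested, and these members varied together from library to library.

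Gjb6 encodes connexin 30, a gap junction protein of astrocytes, and lies at chr14:57123303-57133611. It read 120, 108 and 111 CPM in WT and 135, 174 and 163 CPM in Ulk1OV. All Ulk1OV libraries lay above all WT libraries. Its log2 difference of 0.48 ± 0.12 (1.39-fold, n = 3 against 3) had an adjusted p of 0.0374 in edgeR's quasi-likelihood test and of 0.00471 in DESeq2. The edgeR call was lost in 6 of the 12 fits that each left out a library, those without WT replicate 1, 2 or 3, Ulk1OV replicate 2 or 3, or 5xFAD;Ulk1OV replicate 2, and the adjusted p over the 12 fits ran from 0.0220 to 0.160.

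Serpina3n, at chr12:104406729-104414329, read 49.0, 35.2 and 42.1 CPM in WT and 62.9, 49.8 and 60.8 CPM in Ulk1OV, again without overlap, though the lowest Ulk1OV library was within 1 CPM of the highest WT library. The log2 difference was 0.46 ± 0.12 (1.37-fold) with an edgeR adjusted p of 0.0443 and a DESeq2 adjusted p of 0.0122. Fitted on the 6 libraries of these groups alone, the edgeR adjusted p was 0.0847. The call remained in the fits without 5xFAD replicate 1, without Ulk1OV replicate 2 and without the library in doubt, and was lost in the other 9 fits that left out a library (adjusted p up to 0.180). Serpina3n belongs to a cluster of close relatives, and the sources used here do not say how the authors' counting treated reads shared between them.

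S100b, a calcium-binding protein of astrocytes, read 162, 154 and 133 CPM in WT and 166, 210 and 222 CPM in Ulk1OV. The groups did not overlap, and the log2 difference was 0.42 ± 0.12 (edgeR adjusted p = 0.0658, DESeq2 adjusted p = 0.0241). The other homeostatic members higher without overlap were the glutamate transporters Slc1a2 and Slc1a3, Glul, the connexin gene Gja1, the bicarbonate transporter gene Slc4a4 and Ntsr2, a neurotensin receptor gene. Some of these gaps were narrow. For Gja1 the highest WT library read 364.0 CPM and the lowest Ulk1OV library 365.3 CPM, and for Ntsr2 191.1 and 191.7 CPM. Glul read 2370, 2336 and 2623 CPM in WT and 2694, 3373 and 3281 CPM in Ulk1OV, with a log2 difference of 0.35 ± 0.15 (edgeR adjusted p = 0.173). The median log2 difference was 0.10 for the homeostatic class and 0.06 for the reactive class, beside 0.00 for all genes. The reactive median was -0.11 with DESeq2 and -0.10 with no filter, fits whose medians also take in Lcn2 and Steap4.

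Cp, the gene of the ferroxidase ceruloplasmin, was the reactive member that lay lower without overlap. It read 34.7, 22.3 and 19 CPM in WT and 15.5, 16.9 and 12.3 CPM in Ulk1OV, a log2 difference of -0.76 ± 0.23 (edgeR adjusted p = 0.0644, DESeq2 adjusted p = 0.0149). Of the 10 fibroblast markers, 6 fell in this comparison, and their sum was 356 to 478 CPM in WT and 232 to 259 CPM in Ulk1OV. Fibroblast markers were therefore lower in the libraries in which Cp was lower, and none of them was at 0 in all libraries. Their part in the Cp difference was not tested. Gfap read 674, 902 and 851 CPM in Ulk1OV, overlapping WT, with a log2 difference of 0.07 ± 0.12 (edgeR adjusted p = 0.769) whose sign changed without WT replicate 3 or without Ulk1OV replicate 2. Ulk1OV replicate 1 and WT replicate 3 were each lowest for Gfap in their group, at 674 and 688 CPM. They were also the libraries with choroid plexus sums of 4333 and 6383 CPM. The part of choroid plexus in the Gfap values was not tested. Vim read 96.2, 116 and 105 CPM in Ulk1OV, with a log2 difference of 0.27 ± 0.18 (edgeR adjusted p = 0.399).

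**Figure D3:**
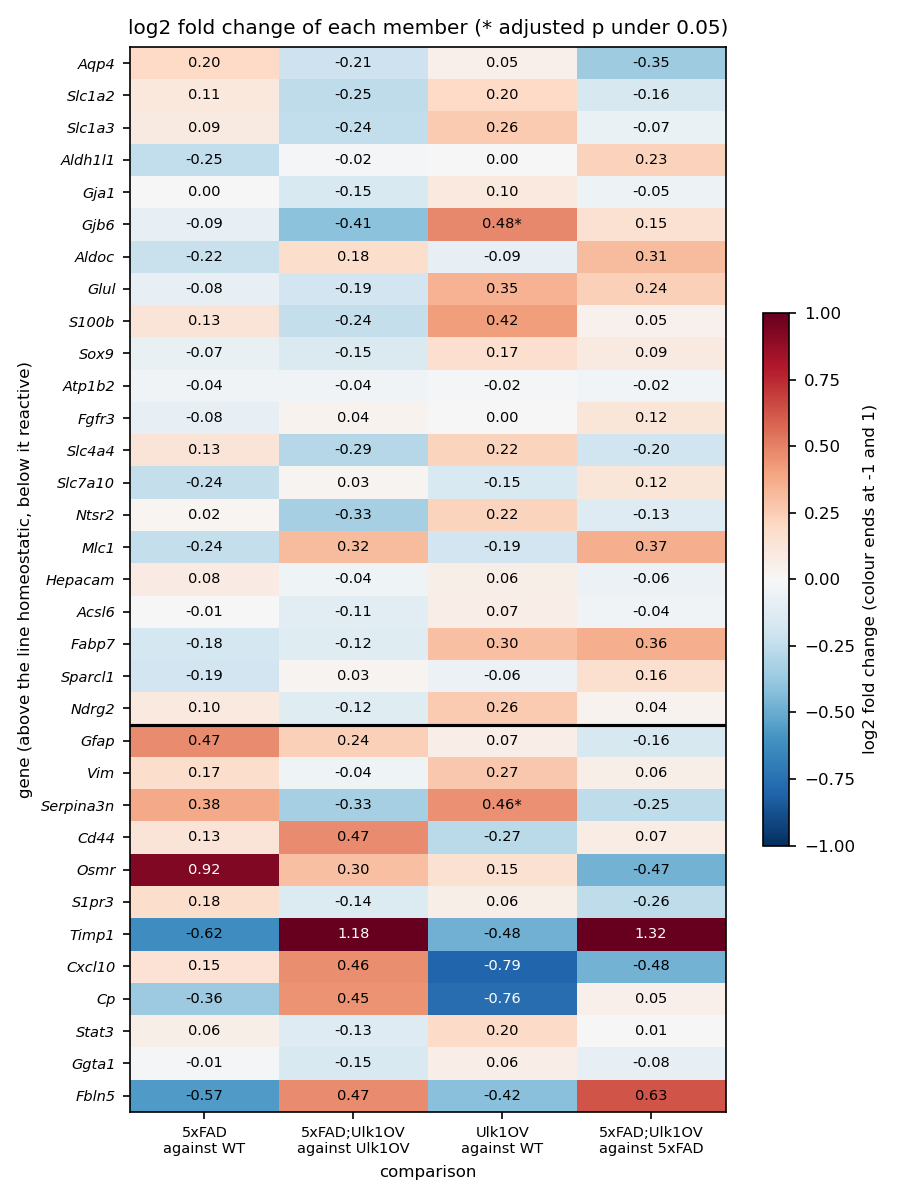
Log2 fold change of the 33 members tested (rows) in 4 comparisons of groups (columns), from edgeR with TMM scaling, with an asterisk where the adjusted p was under 0.05. The asterisks stand at Gjb6 (0.48) and Serpina3n (0.46) in Ulk1OV against WT, and the largest values in both directions are among the reactive genes below the line.

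The double genotype 5xFAD;Ulk1OV was set against 5xFAD to ask what Ulk1OV went with on the 5xFAD background. No member was called by edgeR, where 0.0464% of all genes were called (8 genes, all higher). An unadjusted p under 0.05 was reached by 3 members and by 17.4% of all genes, and DESeq2 called 1 member, Mlc1, where it called 2.28% of all genes. Without overlap, 1 homeostatic member lay higher and 1 lower, and 2 reactive members lay higher and 2 lower, against 10.7% of all genes higher and 11.5% lower.

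Mlc1 was the homeostatic member that lay higher, at 316, 318 and 374 CPM in 5xFAD;Ulk1OV against 276, 275 and 231 CPM in 5xFAD. The log2 difference was 0.37 ± 0.11, with an adjusted p of 0.132 in edgeR and 0.0354 in DESeq2. Without the library in doubt, which was the highest, it was 0.30 ± 0.12. Aqp4, the water channel of the endfeet, lay the other way, at 198, 188 and 220 CPM against 230, 282 and 264 CPM. Its log2 difference was -0.35 ± 0.12 (edgeR adjusted p = 0.160), and -0.40 ± 0.13 without the library in doubt. Correcting each library for GC content and length brought the Aqp4 difference to -0.19.

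Among the reactive members, Serpina3n read 47.2, 46.8 and 44.0 CPM in 5xFAD;Ulk1OV, below all 5xFAD libraries. The log2 difference was -0.25 ± 0.12 (edgeR adjusted p = 0.289), and -0.21 ± 0.13 without the library in doubt. Fbln5, a gene for the elastic fibre protein fibulin 5, read 5.54, 8.53 and 6.78 CPM in 5xFAD and 9.67, 12.7 and 9.85 CPM in 5xFAD;Ulk1OV, and did not overlap either. Its log2 difference was 0.63 ± 0.25 (edgeR adjusted p = 0.213), and 0.70 ± 0.28 without that library. Timp1, an inhibitor of matrix metalloproteinases, had only 4 to 9 counts in the 5xFAD libraries and 10 to 23 in 5xFAD;Ulk1OV. Of the 10 fibroblast markers, 9 lay above 0 in this comparison and 1 below, with a median log2 difference of 0.91, and edgeR called 0. In 5xFAD against WT, 2 of them lay above 0 and 8 below, with a median of -0.91 and 0 called. Their part in the Fbln5 and Timp1 differences was not tested. Osmr read 4.75, 4.69 and 4.01 CPM, below the 5xFAD libraries, with a log2 difference of -0.47 ± 0.25 (edgeR adjusted p = 0.354), and -0.38 ± 0.29 without the library in doubt.

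Gfap read 1050, 918 and 892 CPM in 5xFAD;Ulk1OV, overlapping 5xFAD, and the log2 difference was -0.16 ± 0.12 (edgeR adjusted p = 0.528). It was -0.10 ± 0.14 without the library in doubt. Vim read 104, 93.3 and 111 CPM and lay inside the 5xFAD range, with a log2 difference of 0.06 ± 0.18 whose sign changed without 5xFAD replicate 1. The class medians were 0.05 for homeostatic and -0.04 for reactive members, and -0.01 and -0.07 without the library in doubt.

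With the Ulk1OV label on both sides, 5xFAD;Ulk1OV against Ulk1OV shows what the 5xFAD label went with. The library in doubt is on the 5xFAD side. No member was called by edgeR over all 12 libraries, where 6.1% of all genes were called. DESeq2 called 3 members, Gjb6, Slc4a4 and Mlc1, and 6.3% of all genes. In edgeR, 5 members had an unadjusted p under 0.05, as had 24.8% of all genes. Without the library in doubt, 2 members passed in edgeR, Gjb6 lower and Cd44 higher, beside 947 genes higher and 632 lower among all 17603 tested. The homeostatic class had a median log2 difference of -0.12 and the reactive class of 0.27, beside -0.01 for all genes, and without that library the medians were -0.19 and 0.30. Leaving out Ulk1OV replicate 3 brought the reactive median to 0.096.

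Gjb6 read 105, 112 and 139 CPM in 5xFAD;Ulk1OV against 135, 174 and 163 CPM in Ulk1OV, and the groups overlapped only through the library in doubt. The log2 difference was -0.41 ± 0.12 (edgeR adjusted p = 0.0529), and -0.52 ± 0.11 (adjusted p = 0.0172) without it. Leaving out Ulk1OV replicate 1 gave an adjusted p of 0.0472. Slc4a4 read 191, 216 and 223 CPM against 264, 238 and 267 CPM, lower without overlap, with a log2 difference of -0.29 ± 0.10 (edgeR adjusted p = 0.0814, and 0.0745 without the library in doubt). With the GC and length correction the Slc4a4 difference was -0.16.

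Serpina3n lay below all Ulk1OV libraries here, with a log2 difference of -0.33 ± 0.12 (edgeR adjusted p = 0.104, 0.0462 without Ulk1OV replicate 2), and of -0.28 ± 0.13 without the library in doubt. Cp lay above them at 19.9, 22.4 and 18.9 CPM, with a log2 difference of 0.45 ± 0.23 (edgeR adjusted p = 0.234), and of 0.52 ± 0.25 without that library. Gfap had a log2 difference of 0.24 ± 0.12 (edgeR adjusted p = 0.247), with 5xFAD;Ulk1OV replicate 3 inside the Ulk1OV range. Without that library it was 0.30 ± 0.14, and with the GC and length correction 0.06. Vim differed by -0.04 ± 0.18, and its sign changed with the GC and length correction, without Ulk1OV replicate 2 and without 5xFAD;Ulk1OV replicate 2.

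Cd44, a receptor for hyaluronan, was chosen for mention after its values were seen. It read 7.11, 9.85 and 6.81 CPM in Ulk1OV and 14.9, 12.4 and 5.62 CPM in 5xFAD;Ulk1OV, so that 2 libraries of the double genotype were the highest of all 12 and the third the lowest. Its log2 difference was 0.47 ± 0.29 (edgeR adjusted p = 0.333) with the library in doubt and 0.80 ± 0.21 (adjusted p = 0.0356) without it. Fibroblast markers, of which 5 of 10 rose in this comparison, summed to 455, 469 and 249 CPM in 5xFAD;Ulk1OV and to 232, 259 and 241 CPM in Ulk1OV. They were thus high in the same 2 double libraries as Cd44. The highest fibroblast sum, 478 CPM, was in WT replicate 1, where Cd44 read 9.23 CPM. Cp in the library in doubt, with a fibroblast sum inside the Ulk1OV range, lay above all Ulk1OV libraries. The part of fibroblasts in the Cd44 and Cp differences was not tested. Counted without overlap, 1 homeostatic member lay higher and 2 lower and 3 reactive members lay higher and 2 lower, against 14.2% of all genes higher and 13.4% lower.

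**Figure D4:**
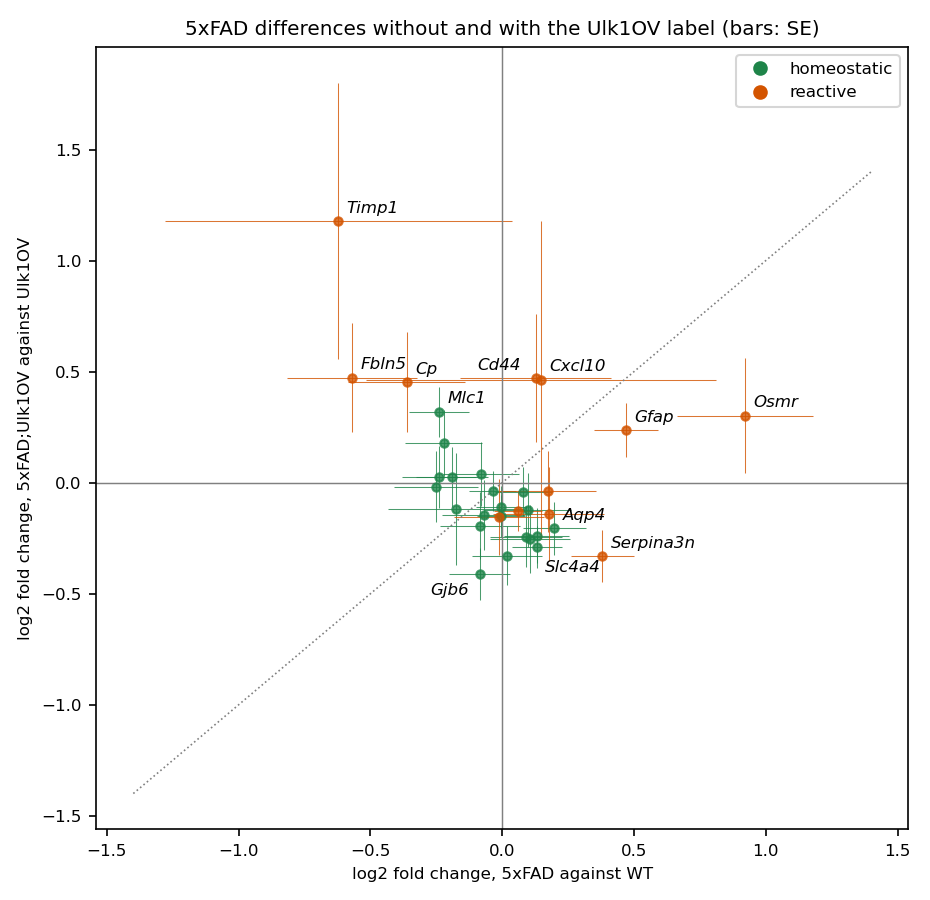
Log2 fold change of each member tested for 5xFAD against WT (horizontal axis) and for 5xFAD;Ulk1OV against Ulk1OV (vertical axis), with SE bars and a dotted line of equal values. Gfap and Osmr lie to the right of and above 0 on both axes, Serpina3n at 0.38 and -0.33, and Mlc1 at -0.24 and 0.32.

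Whether the 5xFAD difference itself depended on Ulk1OV was tested as an interaction, the 5xFAD log2 difference with Ulk1OV minus that without. It was called by edgeR for 12.8% of all genes (6.8% positive, 5.96% negative) and for 2 members, Serpina3n with a negative and Mlc1 with a positive value. DESeq2 called 2 members of each class and 9.1% of all genes. The 5xFAD difference of Serpina3n was 0.38 without and -0.33 with Ulk1OV, giving an interaction of -0.71 ± 0.17 (adjusted p = 0.0175 in edgeR's quasi-likelihood test, 0.00296 in DESeq2). The 4 groups averaged 42.1 ± 6.89 CPM (WT), 54.8 ± 3.23 (5xFAD), 57.8 ± 7.0 (Ulk1OV) and 46.0 ± 1.76 (5xFAD;Ulk1OV; SD, n = 3 each). On average each genotype alone thus stood above WT and above the double genotype.

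The Serpina3n interaction was -0.65 ± 0.18 (edgeR adjusted p = 0.0322) without the library in doubt. It ran from -0.83 to -0.60 when each library was left out, and the adjusted p passed 0.05 only without Ulk1OV replicate 3, at 0.0509. Mlc1, at chr15:88955884-88979007, had group means of 308 ± 34.9 CPM (WT), 261 ± 25.8 (5xFAD), 269 ± 23.5 (Ulk1OV) and 336 ± 33.2 (5xFAD;Ulk1OV). Its interaction was 0.56 ± 0.16 (edgeR adjusted p = 0.0360). Without the library in doubt it was 0.50 ± 0.16 with an adjusted p of 0.0504, and with the GC and length correction 0.42 with an adjusted p of 0.153. The Mlc1 call remained in 3 of the 12 fits that left out a library, those without WT replicate 3, 5xFAD replicate 1 or Ulk1OV replicate 2 (adjusted p over the 12 fits 0.0219 to 0.0957).

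Fbln5, Cp and Timp1 had positive interactions that edgeR did not call over the filtered genes with all 12 libraries. They were 1.04 ± 0.35 (edgeR adjusted p = 0.0645), 0.81 ± 0.32 (0.106) and 1.80 ± 0.91 (0.206). DESeq2 and edgeR with no filter called more reactive members for the interaction, as counted at the end. Leaving out the library in doubt gave 1.13 ± 0.37, 0.89 ± 0.34 and 2.07 ± 0.94 in the same order. Of the 10 fibroblast markers, 6 were called with a positive interaction, and likewise 4 of the 10 endothelial markers and 3 of the 9 mural cell markers tested. Endothelial markers summed to 71.7 to 108 CPM (WT), 57.8 to 75.5 (5xFAD), 59.5 to 76.7 (Ulk1OV) and 73.4 to 97.3 (5xFAD;Ulk1OV). Their part in the values of these 3 members was not tested.

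Averaged over both Ulk1 states, the 5xFAD difference was 0.35 ± 0.09 for Gfap (1.28-fold) and 0.61 ± 0.18 for Osmr, on the log2 scale. Neither was called, as was no gene (edgeR adjusted p = 0.843 for Gfap and 0.964 for Osmr, 0.0% of genes called, 802 at an unadjusted p under 0.05, 16 called by DESeq2). Without the library in doubt the Gfap value was 0.38 ± 0.09 with an adjusted p of 0.379. Averaged over both 5xFAD states, the Ulk1OV difference was 0.32 ± 0.08 for Gjb6 (edgeR adjusted p = 0.377; 0.26 ± 0.07 without the library in doubt), and again no gene was called (1521 at an unadjusted p under 0.05, 40 called by DESeq2).

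The members not described above were not called in the 7 comparisons by edgeR over the filtered genes or by DESeq2. With no filter, edgeR also called Ntsr2 lower in 5xFAD;Ulk1OV against Ulk1OV and Fabp7 higher in the averaged Ulk1OV difference. Among the homeostatic ones, Aldoc had log2 differences between -0.22 and 0.31 over the 4 comparisons of groups. Aldh1l1, the folate enzyme gene used to label all astrocytes, lay between -0.25 and 0.23, and Sox9 between -0.15 and 0.17. Hepacam, a cell adhesion partner of the Mlc1 protein, lay between -0.06 and 0.08 although Mlc1 itself ran from -0.24 to 0.37. Of the reactive ones, S1pr3, a receptor gene for sphingosine 1-phosphate, ranged from 6.40 to 11.2 CPM and Ggta1, a glycosyltransferase gene, from 6.34 to 9.21 CPM over the 12 libraries. Cxcl10, an interferon-induced chemokine gene, had 6 to 46 counts per library, too few to resolve log2 differences whose SE was 0.66 to 0.72.

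The homeostatic members varied together from library to library inside the groups. Relative to each gene's mean over the 12 libraries, their median was -0.26 on the log2 scale in 5xFAD replicate 3, which was the lowest library for 9 of the 21. It was -0.18 in 5xFAD;Ulk1OV replicate 1, the lowest for 7. It was 0.15 in Ulk1OV replicate 2, the highest for 7, and 0.16 in the library labelled 5xFAD;Ulk1OV replicate 3, the highest for 5. The Ulk1OV group held the highest library of 12 of the 21. The same counts were not made over all genes tested. Atp1b2 was the steadiest member, with a ratio of 1.18 between its highest and lowest library, and Gja1 followed at 1.28. Fabp7, a fatty acid binding protein of radial glia and astrocytes, was the least steady homeostatic member at 2.41.

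**Figure D5:**
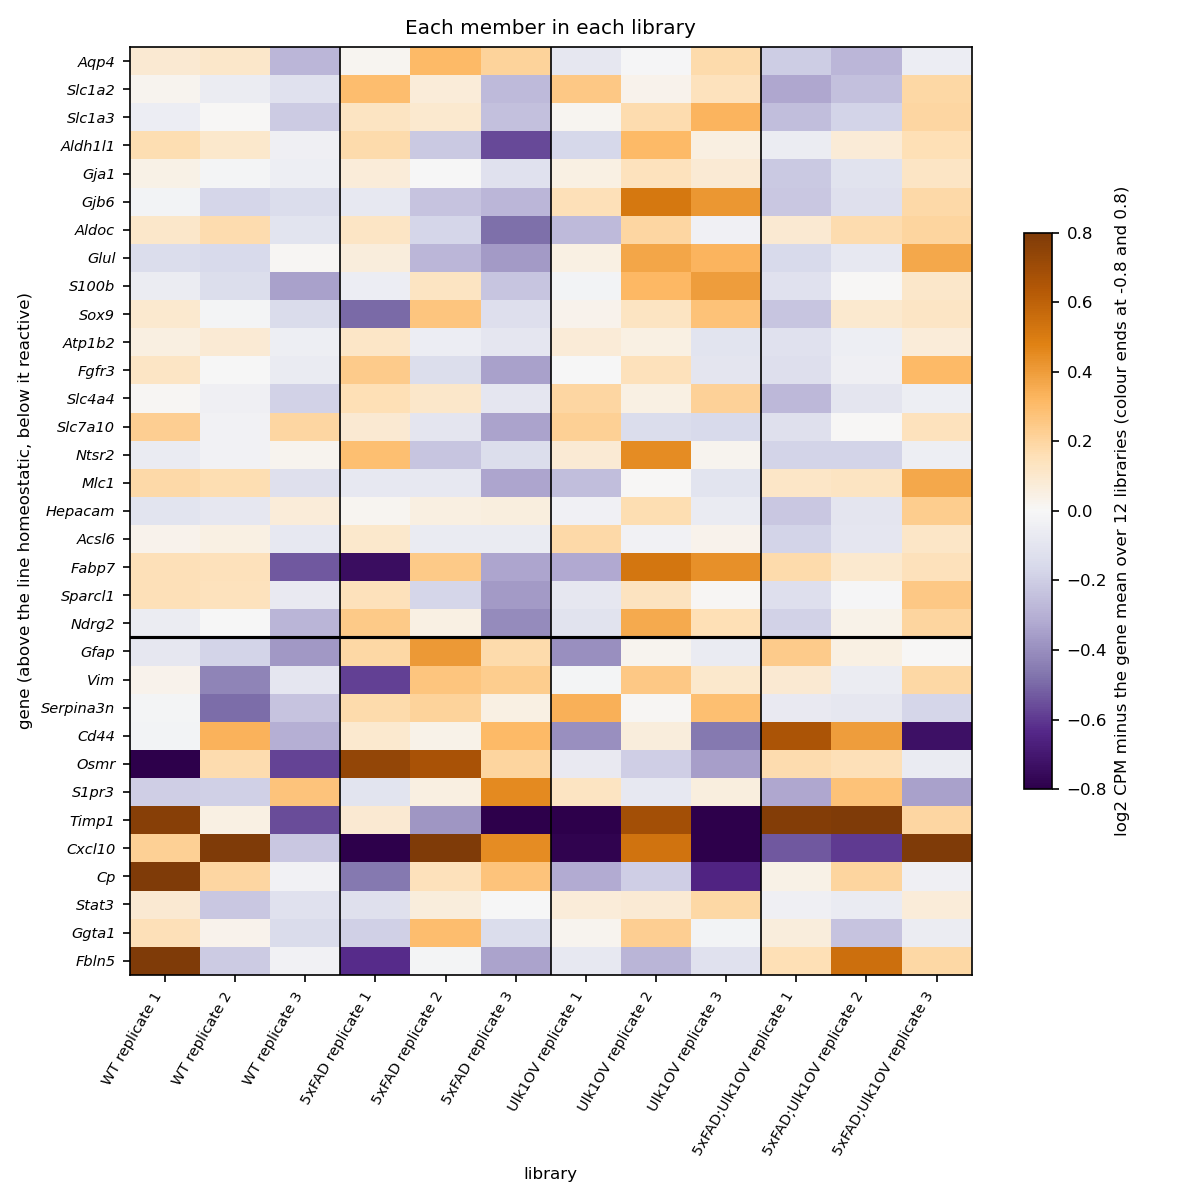
Log2 CPM of each tested member minus its mean over the 12 libraries, one row per gene and one column per library, with groups parted by vertical lines. Most homeostatic rows are purple (low) in 5xFAD replicate 3 and 5xFAD;Ulk1OV replicate 1 and orange (high) in Ulk1OV replicate 2 and 5xFAD;Ulk1OV replicate 3.

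Further astrocyte genes, listed apart from the 35 members, moved in both directions. Of 28 other homeostatic genes, 0 were called in 5xFAD against WT, in 5xFAD;Ulk1OV against 5xFAD and in 5xFAD;Ulk1OV against Ulk1OV by edgeR, with 2, 3 and 10 at an unadjusted p under 0.05 and 0, 0 and 2 called by DESeq2. Over all genes, edgeR called 0.0%, 0.0464% and 6.1% in the same order, and DESeq2 called 0.43%, 2.28% and 6.3%. An unadjusted p under 0.05 in edgeR was reached by 12.4%, 17.4% and 24.8% of all genes. Without the library in doubt, edgeR called 4 in 5xFAD;Ulk1OV against Ulk1OV, all lower, beside 947 genes higher and 632 lower among all genes. In Ulk1OV against WT, 1 rose and 2 fell by edgeR, while DESeq2 called 4 higher and 3 lower. Over all genes, edgeR called 5.17% and DESeq2 5.87% in that comparison. Dio2, which activates thyroid hormone, rose by 0.99 ± 0.27 (edgeR adjusted p = 0.0492), from 84.8, 86.6 and 89.4 CPM to 158, 182 and 179 CPM. Bcan, the matrix proteoglycan brevican, had a log2 difference of -0.49 ± 0.13 (edgeR adjusted p = 0.0431) and Tril, a Toll-like receptor adaptor, of -0.46 ± 0.11 (adjusted p = 0.0400). The interaction was called for Dio2 (-1.34 ± 0.38), Bcan (0.62 ± 0.18) and Gpr37l1, an orphan receptor gene (0.52 ± 0.14), and all 3 calls held without the library in doubt. DESeq2 called 7 for the interaction. Over all genes, the interaction was called for 12.8% by edgeR and for 9.1% by DESeq2.

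Of 24 other reactive genes tested, 2 fell in Ulk1OV against WT and 2 rose in 5xFAD;Ulk1OV against Ulk1OV by edgeR. DESeq2 called 5 lower in the former and 3 higher in the latter. Over all genes, edgeR called 5.17% and 6.1% in either direction, and DESeq2 5.87% and 6.3%. Sphk1, which makes sphingosine 1-phosphate, fell in the former and rose in the latter. Its log2 differences were -1.80 ± 0.39 (edgeR adjusted p = 0.0296) and 2.02 ± 0.39 (adjusted p = 0.0180). It read 3.0, 1.47 and 2.51 CPM in Ulk1OV and 10.8, 12.7 and 4.90 CPM in 5xFAD;Ulk1OV, with the library in doubt lowest of its group, and the latter difference was 2.35 ± 0.35 without that library. Tnc, the matrix protein tenascin C, fell in the former (-0.78 ± 0.20, adjusted p = 0.0458) and Aspg, an asparaginase gene, rose in the latter (1.51 ± 0.35, adjusted p = 0.0272). The interaction was called by edgeR for Sphk1 (2.99 ± 0.54, adjusted p = 0.00737), Aspg (1.68 ± 0.48, 0.0367) and Hspb1, a small heat shock protein gene (1.51 ± 0.34, 0.0152). Over all genes, the interaction was called by edgeR for 12.8%. In 5xFAD;Ulk1OV against 5xFAD, edgeR called 0 of this list, with 3 at an unadjusted p under 0.05. DESeq2 called 2 higher there, Hspb1 and Sphk1. Over all genes in that comparison, edgeR called 0.0464%, with 17.4% at an unadjusted p under 0.05, and DESeq2 called 2.28%. In 5xFAD against WT, edgeR and DESeq2 each called 0 of this list. There 2 were higher and 2 lower at an unadjusted p under 0.05 in edgeR, as were 12.4% of all genes in either direction. Sphk1 was highest in WT replicate 1 and 5xFAD;Ulk1OV replicates 1 and 2, the 3 libraries with the highest fibroblast marker sums, and Aspg in the latter pair. The part of those cells was not tested.

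Of 19 genes for interleukin 6 family ligands, receptors, JAK kinases and STAT3 targets, 16 were tested. By edgeR, 1 of the 16 was called in Ulk1OV against WT and 2 for the interaction, where 5.17% and 12.8% of all genes were. DESeq2 called 2 in each, where it called 5.87% and 9.1% of all genes. Pim1, a kinase gene induced by STAT signalling, fell in Ulk1OV against WT (-1.27 ± 0.34, edgeR adjusted p = 0.0471), from 2.12, 2.67 and 2.44 CPM to 1.06, 0.89 and 1.04 CPM. The interaction was called for Pim1 (1.83 ± 0.47, adjusted p = 0.0250) and for the kinase gene Jak2 (-0.61 ± 0.15, adjusted p = 0.0240), and both calls held without the library in doubt. Stat3 itself read 52.6 to 65.4 CPM (WT), 56.4 to 64.3 (5xFAD), 64.6 to 70.3 (Ulk1OV) and 58.7 to 64.5 (5xFAD;Ulk1OV), and its log2 differences lay between -0.13 and 0.20, none called.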

How the data were processed

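Gene counts of 12 hippocampal libraries were deposited by the authors as 1 table of whole numbers. Per the submitters' processing notes, the tools named are HISAT2, featureCounts, SAMtools, FastQC, Trim Galore and DESeq2, and the build is mm10. The annotation, the strand setting and the handling of shared reads are not stated in those sources. Counts were fitted with edgeR 4.0.16 (R 4.3.3, limma 3.58.1) with TMM scaling, filterByExpr and the quasi-likelihood test, with 1 mean per group over all 4 groups and Benjamini-Hochberg adjustment over the 17227 genes tested, called under 0.05. SE is the size of the log2 fold change divided by the root of the F statistic. CPM was computed from the counts and the TMM-scaled totals. Exon lengths and coordinates come from GENCODE M21 (GRCm38). Replicate libraries differed beyond counting noise and each was counted as 1 sample. The edgeR and DESeq2 fits were tested on simulated data with known changes in each of the 7 comparisons. Alternatives were DESeq2 1.42.0, its size factors in edgeR, a replicate block, the unfiltered table, a fit of only the libraries compared, a loess correction for GC content and length (99.3% of tested genes had both), and leaving out each library.

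The members and lists were chosen with earlier results of these data known. Members are given in every library when called, when among the 2 of a class with the smallest p in a comparison of groups, and always for Gfap, Vim and Serpina3n. Up to 3 genes with the smallest p are named from each further list. Marker lists cover microglia, endothelium, mural cells, fibroblasts, choroid plexus, ependyma, oligodendrocytes, neurons and blood, with 5 to 10 genes each. Summed levels over the 12 libraries ran from 555 to 696 CPM for microglia, 105 to 218 for mural cells, 31.7 to 164 for ependyma, 7777 to 14694 for oligodendrocytes and 52.0 to 209 for blood.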

Additional observations from a re-analysis of the deposited data

Results flagged for a closer look

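By edgeR's test, the interaction of 5xFAD and Ulk1OV was called for 2 of the 33 members tested and for 12.8% of all genes. For Serpina3n the 5xFAD log2 difference with Ulk1OV minus that without was -0.71 ± 0.17 (adjusted p = 0.0175). This call was lost without Ulk1OV replicate 3 (edgeR adjusted p = 0.0509). For Mlc1 the interaction was 0.56 ± 0.16 (adjusted p = 0.0360). That call was lost in 9 of the 12 fits that left out a library, among them the fit without the library in doubt. It was also lost with the GC and length correction (0.42).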

How the results depend on the processing

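Counts of called members depended on the tool and the filter. DESeq2 called 0.43% of all genes in 5xFAD against WT, 2.28% in 5xFAD;Ulk1OV against 5xFAD and 5.87% in Ulk1OV against WT. It called 6.3% in 5xFAD;Ulk1OV against Ulk1OV and 9.1% for the interaction. DESeq2 called 1 reactive member in 5xFAD against WT, 1 homeostatic in 5xFAD;Ulk1OV against 5xFAD, 2 of each class in Ulk1OV against WT, 3 homeostatic in 5xFAD;Ulk1OV against Ulk1OV, and 2 of each class for the interaction. With no filter on low counts, edgeR called 2 reactive members in 5xFAD against WT, 2 homeostatic in 5xFAD;Ulk1OV against 5xFAD, 2 of each class in Ulk1OV against WT, 2 homeostatic and 1 reactive in 5xFAD;Ulk1OV against Ulk1OV, 3 reactive for the interaction, 1 reactive for the averaged 5xFAD difference and 2 homeostatic for the averaged Ulk1OV difference. Over all 31643 genes, that fit called 607 higher and 294 lower in 5xFAD;Ulk1OV against 5xFAD, and 834 and 1245 in Ulk1OV against WT. It called 1275 and 822 in 5xFAD;Ulk1OV against Ulk1OV, and 1650 and 1187 for the interaction. On only the libraries compared, 0 reactive members were called in Ulk1OV against WT, beside 278 genes higher and 508 lower. With the GC and length correction, 0 homeostatic members were called for the interaction, beside 406 genes higher and 496 lower. Leaving out each library gave 0 to 2 members of each class in Ulk1OV against WT and for the interaction, and 0 to 1 of each class in 5xFAD;Ulk1OV against Ulk1OV. With no filter, edgeR called 78 genes higher and 124 lower for the averaged 5xFAD difference, and 265 and 172 for the averaged Ulk1OV difference. The causes of these changes in counts were not tested. Over all genes, edgeR called 127 higher and 424 lower with no filter in 5xFAD against WT, and 0 in Ulk1OV against WT without WT replicate 1, WT replicate 2 or Ulk1OV replicate 3 (3173, 3328 and 2808 at an unadjusted p under 0.05). Of the class medians under the alternatives, 7 moved, all of the reactive class. Signs turned for Vim in 5xFAD;Ulk1OV against 5xFAD (-0.16 without 5xFAD replicate 1, up to 0.19 without another library), for Gfap in Ulk1OV against WT (-0.025 to 0.19 over libraries left out), and for Vim in 5xFAD;Ulk1OV against Ulk1OV (0.028 with the GC and length correction, -0.10 to 0.043 over libraries left out). Of the other values of single members, 413 kept their direction and their side of the threshold, 20 passed it only under an alternative and 27 no longer passed it. With the replicate number as a block, Ulk1OV against WT gave 1 homeostatic and 1 reactive member, and no count of called members in any comparison moved. Deviations of libraries with the same number correlated between -0.183 and 0.216, so the numbers were not taken as a pairing. The filter left out Lcn2 and Steap4, at 1 to 27 and 1 to 10 counts per library, and depth gave Cxcl10 an SE of up to 0.72 on the log2 scale.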
